A study of Mus musculus with 6 samples.

Results

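The IP RNA of control sperm was compared with the supernatant RNA of the same samples on 3 two-colour microarrays, from 6 in the whole series. The IP is the RNA brought down by an immunoprecipitation and labelled with the red dye Cy5. The supernatant is the RNA left in solution, labelled with the green dye Cy3 and hybridised to the same array. The sources used here do not give what the antibody bound. The control males were C57BL/6 mice that were assigned to their group at 5 weeks of age, drank control water for 10 weeks and gave sperm at 15 weeks. The 3 Cd arrays hold sperm of males of the same strain and age that drank water with 100 mg/L CdCl2 over those 10 weeks. No transgene or deletion is named for either group. The labels call the 3 arrays of a group biological replicates and do not say whether each is 1 male or a pool, so p-values here measure the spread between these arrays.

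The comparison covered 60691 array features of 4 series, named by how their identifiers begin: 48057 EP3A, 8497 EP3B, 4087 SM and 50 catalogue features. The sources used here do not give what EP3A, EP3B and SM stand for. A feature entered when its IP or its supernatant signal was well above background, a flag set by the scanner software, on all 3 control arrays. This kept 22172 features, or 36.5% of the 60691. The measure was the log2 ratio of the IP over the supernatant processed signal, centred on the median of the kept features of each array. A ratio of 0 is therefore the middle of the array, and the values show how RNAs are ordered between the fractions, not how much RNA each fraction held.

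Mature sperm are nearly silent in transcription and carry a store of RNA left from spermatogenesis, together with small RNAs taken up during passage through the epididymis. This store holds fragments of messenger and ribosomal RNA, long noncoding RNAs and small RNAs such as tRNA fragments and microRNAs. An immunoprecipitation sorts such RNA by what it carries or is bound to, and the supernatant serves as its counterpart. Of 18 sperm and late germ cell marker genes, 3 had a named feature, and Hyal3 and Cep41 were kept. None of the 5 listed marker names of leukocytes, in which Ptprc and Cd45 name the same gene, had one. The same held for the 5 markers of epididymal epithelium, 4 of Sertoli cells and 4 of Leydig cells. The purity of the sperm could thus not be checked on this array.

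Control replicate 1 stood apart in brightness. Its IP channel was well above background for 28.2% of features, against 41.9% and 44.8% on control replicates 2 and 3, and its supernatant channel for 35.2%, against 39.1% and 44.1%. No spot of the 4 series was saturated. The 3 arrays were read in 1 scan. No dye swap is labelled, so dye and fraction cannot be told apart in any value below. In RNA from whole sperm samples, fewer cells carrying an RNA and less of it per cell cannot be told apart either.

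The RNA of control sperm was split widely and repeatably between the fractions. Of the 22172 features, 7054 (31.8%) were higher in the IP and 7347 (33.1%) were higher in the supernatant (limma, Benjamini-Hochberg adjusted p under 0.05), and 7771 did not pass. Centring on the median sets the middle of each array, so the near-even split is not read as a result about the fractions. With no centring, on signals whose dyes the scanner software had already normalized, 6507 were higher in the IP and 7840 in the supernatant. When each array was centred on 14 spike-in features in place of the median, 2648 were higher in the IP and 12941 in the supernatant. The share of calls on the IP side was then 16.99%, against 49.0% in the main setting. Without limma's moderation of the variances 2788 features passed on the IP side and 2587 on the supernatant side. The mean ratio lay beyond 4-fold on the IP side for 1702 features and on the supernatant side for 2220. It lay beyond 8-fold for 390 and 519.

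Part of these counts is fixed by the filter, since a feature seen in 1 channel alone had to differ. Both channels were well above background on all 3 control arrays for 15148 features, of which 5437 passed on the IP side and 4024 on the supernatant side. Within this set 973 features lay beyond 4-fold on the IP side and 1013 on the supernatant side. These counts keep the centring on all kept features, on which the median of this set was 0.20 as a mean of the 3 arrays. With each array centred on this set, 4889 passed on the IP side and 5131 on the supernatant side, so the lean depends on the centring. A further 479 features were well above background in the IP on all 3 arrays and in the supernatant on none. For these the IP was at least 2.88-fold higher in the median, and at least 18.3-fold for the highest. The bound is the mean over the 3 arrays of the centred log2 ratio, with the supernatant signal replaced by the lowest one that counted as well above background on that array where this is higher. It is thus relative to the array median, and a single array can lie below it. The opposite pattern, supernatant on 3 arrays and IP on none, was held by 807 features, with the supernatant at least 1.98-fold higher in the median and at least 13.7-fold at most. All remaining kept features, 5738, had a mixture of flags over the arrays.

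The 3 arrays ordered the features alike. Across the 21896 features with a value on all 6 arrays, the ratios of control replicates 1 and 2 correlated at 0.86, of 1 and 3 at 0.91 and of 2 and 3 at 0.91. These are correlations across features that share their 2 libraries on an array, given as a description. The SD over the 3 arrays was 0.36 on the log2 scale for the median feature. The ratio had 1 sign on all 3 arrays for 79.5% of features, 8786 on the IP side and 8835 on the supernatant side.

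The series parted unequally between the fractions. SM features lay on the supernatant side: their median log2 ratio was -1.56, -2.19 and -2.09 on control replicates 1, 2 and 3. Control replicate 1 was the least extreme, and without it the mean of the array medians was -2.14 against -1.95 ± 0.34 (SD, n = 3) with it. EP3A medians were 0.06, 0.09 and 0.07, close to the middle of each array. EP3B medians were 0.06, -0.03 and -0.02, and their sign was not the same on all arrays. Catalogue features, of which 28 were kept, had medians of 1.67, 1.54 and 1.52 and lay on the IP side.

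The distance between SM and EP3A was -1.62, -2.28 and -2.16 on the 3 arrays, a mean of -2.02 ± 0.35. The distance of catalogue features from EP3A was 1.61, 1.45 and 1.45. EP3B differed from EP3A by -0.07 ± 0.06 on average. Each of these 3 differences had 1 sign on all 3 arrays, and the exact sign-flip permutation test gave the smallest 2-sided p it allows with 3 arrays, 0.25, for each. Such differences within an array do not depend on the centring. With normexp background correction, which draws the ratios of dim features toward 0, the SM median was -0.60.

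Counts of single features followed the same order. Of 1180 kept SM features, 900 (76.3%) were higher in the supernatant and 99 (8.39%) in the IP. Of 18602 EP3A features, 5681 (30.5%) were higher in the supernatant and 6240 (33.5%) in the IP. EP3B had 764 (32.3%) and 695 (29.4%) of 2362, near the 33.1% and 31.8% over all features. Of the 28 catalogue features, 2 were higher in the supernatant and 20 in the IP. Beyond 4-fold toward the supernatant lay 49.1% of SM features, 9.95% of EP3B and 7.56% of EP3A features.

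**Figure D1:**
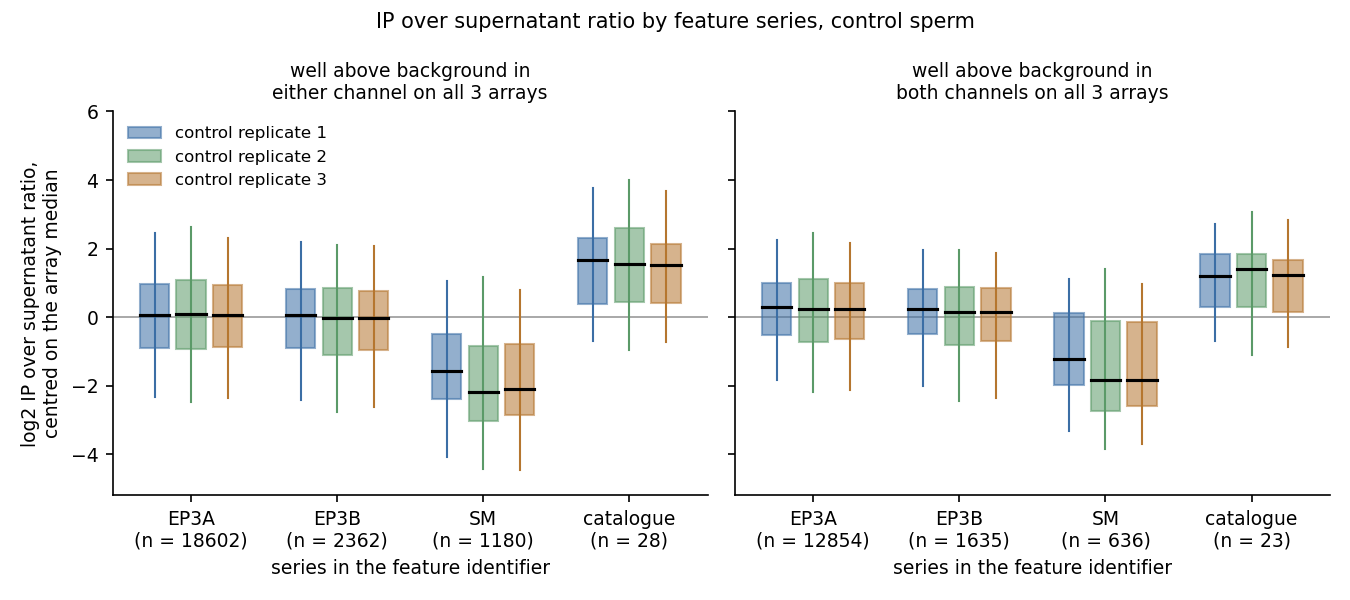
Log2 IP over supernatant ratio, centred on the array median, of each feature series on the 3 control arrays; the left panel holds features well above background in either channel on all 3 arrays and the right panel those in both channels. Boxes span the middle 50% of features, black lines are medians and vertical lines run from the lower to the upper 5% of features; the SM medians lie between -2.19 and -1.56 in the left panel and between -1.84 and -1.22 in the right, below all other series.

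The same order held among features measured in both fractions. There the SM medians were -1.22, -1.83 and -1.84, the EP3A medians 0.29, 0.23 and 0.23, the EP3B medians 0.25, 0.14 and 0.15 and the catalogue medians 1.20, 1.42 and 1.24. Of 636 SM features in this set, 423 (66.5%) passed on the supernatant side and 74 (11.6%) on the IP side. Taken over all signal levels, the SM features of this set were also more spread out than the others. Their middle 50% of mean ratios ran from -2.43 to -0.03, against -0.60 to 0.99 for EP3A.

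The shares of features well above background in each channel come from the same signals as the ratios, so they are a description and not separate support. On control replicate 1, 16.6% of all SM features with an unflagged spot were well above background in the IP and 29.9% in the supernatant. The shares were 25.0% and 32.4% on control replicate 2 and 28.3% and 36.4% on control replicate 3. The supernatant thus showed more SM features than the IP on every array, with IP minus supernatant differences of -13.3, -7.45 and -8.06 percentage points. For EP3A the same difference was -6.76 points on control replicate 1 and 4.03 and 1.47 points on control replicates 2 and 3. EP3B changed sides with EP3A, at -5.13, 1.27 and 0.82 points. SM features seen in the supernatant channel alone numbered 564, 384 and 396 on the 3 arrays, against 21, 80 and 67 seen in the IP channel alone.

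**Figure D2:**
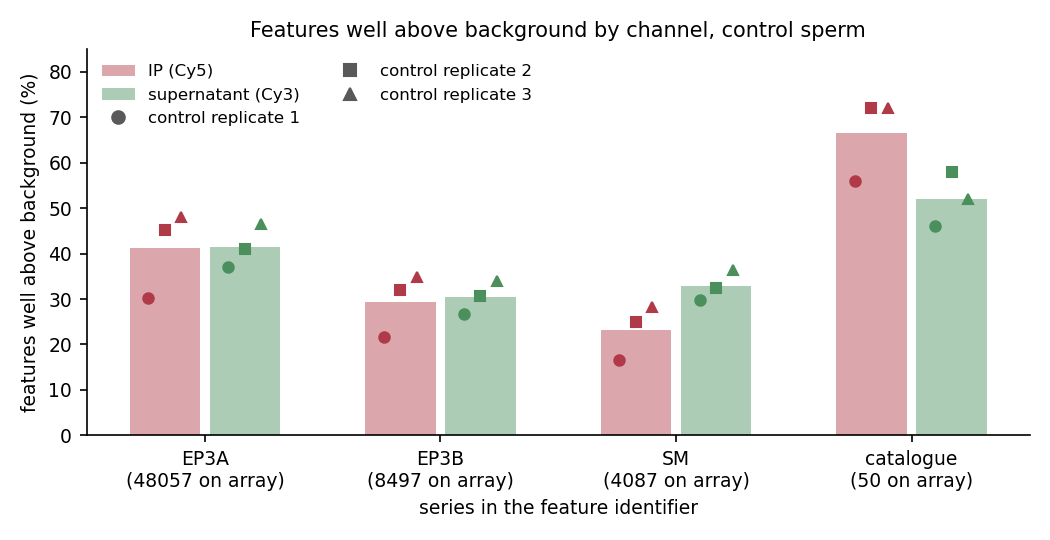
Percentage of all features of a series on the array that were well above background in the IP (red) and in the supernatant (green). Bars are means of the 3 control arrays and symbols single arrays; SM shows a lower IP than supernatant share on each array, and catalogue features a higher one.

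The split was then followed over signal level, the mean log2 signal of both channels. The 22172 features were cut into 5 equal bins from dim to bright. In the dimmest bin the median ratio over all series was -0.57, -0.30 and -0.36 on the 3 arrays. In the next 3 bins it lay between 0.07 and 0.14 on every array, and in the brightest bin at 0.08, -0.04 and 0.02. The slope of the ratio on the level was 0.054, 0.011 and 0.004 log2 units per log2 unit of signal, a mean of 0.023 ± 0.027 (SD, n = 3). Without control replicate 1 the mean was 0.008, and with the level taken from the Cd arrays it turned to -0.02. Among features measured in both fractions the slope was -0.087, -0.091 and -0.102, of 1 sign on every array, and the median ratio went from 0.42 in the dimmest bin to -0.01 in the brightest. The sign of the slope thus differed between the filters. Level and ratio come from the same signals, so these values are descriptions. The processed signals had also passed a lowess dye step, which evens out ratios over signal level within an array. The slopes and the medians of the bins are partly set by that step and cannot be read as a trait of the fractions.

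Bright features were the most repeatable. The median SD over arrays fell from 0.55 in the dimmest bin to 0.40, 0.35, 0.31 and 0.27 in the following bins. The share of features that passed on either side was 66.6%, 59.3%, 62.9%, 65.4% and 70.5% from the dimmest to the brightest bin. In the dimmest bin 42.0% passed on the supernatant side and 24.6% on the IP side, and in the brightest 36.1% and 34.4%.

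SM features lay below EP3A features of the same brightness in each of the 5 bins and on each of the 3 arrays. The SM median, as a mean of the 3 arrays, was -2.17, -1.57, -1.86, -2.36 and -1.37 from the dimmest to the brightest bin, with 284, 224, 253, 289 and 130 features. The EP3A values in the same bins were -0.31, 0.17, 0.17, 0.19 and 0.06. Among features measured in both fractions, the SM median was 0.07 in the dimmest of 5 bins, then -1.41, -2.05 and -2.48, and -0.93 in the brightest. A dim feature that is seen in both channels cannot have a ratio far from 0, so the first of these values is limited by the filter. In the brightest bin 22.9% of 83 SM features passed on the IP side and 57.8% on the supernatant side.

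**Figure D3:**
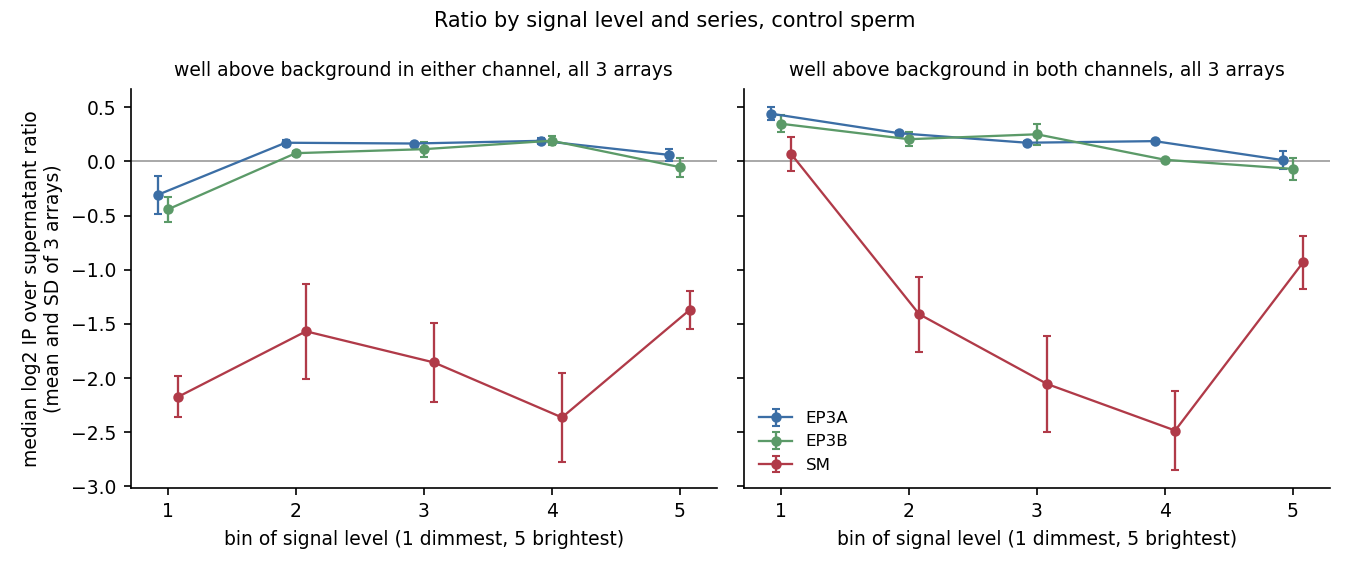
Median log2 IP over supernatant ratio of EP3A, EP3B and SM features in 5 equal bins of signal level; points are means and bars SDs of the 3 control arrays. SM lies below EP3A and EP3B in every bin of both panels, with its lowest median in bin 4 (-2.36 on the left, -2.48 on the right).

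The features furthest to either side are given by their identifiers, since the sources used here pair no gene name or sequence with the EP3A, EP3B and SM series. They were taken among features that were called and well above background in both channels on all 3 arrays. The largest IP ratio was that of ASMM10EP3A100081964, at 5.02, 5.41 and 4.86 on the 3 arrays. Its IP signal was 7757, 11178 and 12366 and its supernatant signal 265, 281 and 438, a 34.2-fold mean ratio (limma adjusted p = 5.14e-05). ASMM10EP3A107093703 and ASMM10EP3A100180827 followed with mean ratios of 4.86 ± 0.48 and 4.82 ± 0.30 (SD, n = 3). All 9 of these array values lay above 4.4. On the supernatant side EP3A reached less far, at -3.74 ± 0.26 for ASMM10EP3A118537823, -3.74 ± 0.29 for ASMM10EP3A100225619 and -3.73 ± 0.19 for ASMM10EP3A118965345.

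SM showed the reverse. ASMM10SM1100116272 had ratios of -5.88, -5.73 and -5.69. Its IP signal was 242, 306 and 392 and its supernatant signal 15717, 17341 and 20818, a 54.4-fold mean ratio toward the supernatant (limma adjusted p = 4.86e-05). ASMM10SM1100052062 and ASMM10SM1100106767 lay at -5.50 ± 0.46 and -5.48 ± 0.34. The most IP-sided SM features were ASMM10SM1100150461 at 2.87 ± 0.43, ASMM10SM1100118571 at 2.59 ± 0.23 and ASMM10SM1100145616 at 2.32 ± 0.40. The last of these was bright in both channels, with IP signals of 54659, 64427 and 62995 and supernatant signals of 9513, 13061 and 17609.

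EP3B ran about as far to both sides. Its highest ratios were 4.03 ± 0.35 for ASMM10EP3B105588697, 3.76 ± 0.44 for ASMM10EP3B104595313 and 3.55 ± 0.30 for ASMM10EP3B103273676. Its lowest were -3.80 ± 0.08 for ASMM10EP3B105683411, -3.61 ± 0.25 for ASMM10EP3B100027831 and -3.54 ± 0.38 for ASMM10EP3B101511697. Each of the features named here had 1 sign on all 3 arrays.

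Gene names were available for 45 of the 50 catalogue features, each printed on 10 spots of an array, and 27 of these genes were kept. Of the 27, 19 were higher in the IP, 2 were higher in the supernatant and 6 did not pass, beside 31.8% and 33.1% of all features. The median of their mean ratios was 1.53, against -0.01 over all kept features. These are the genes that happen to have a catalogue feature, and 22 of them were measured in both fractions on all 3 arrays, with 14 higher in the IP, 2 higher in the supernatant and 6 that did not pass. With spike-in centring the counts among the 27 were 14 and 6. Normexp, whose offset draws the ratios of dim features toward 0, lowered many ratios. It kept the sign of each gene that passed in the main setting. It gave 1.26 for Ppara, 1.06 for Mbp, 0.52 for Chgb, 0.54 for Alkbh4 and 0.40 for Hyal3, so their bounds hold for the processed signals and not under normexp. Of the genes measured in both fractions, Bambi stood at 1.66 with normexp, Dnajc11 at 1.17, Pex11a at 1.60, Uhrf1bp1l at 1.20, Nup50 at 0.65, Carhsp1 at 0.75 and Cpt1a at 1.05. Apoe at 2.73, Gpi1 at 1.66 and Prdx2 at -1.13 moved less. The SD between the 10 spots of a gene on an array was 0.17 in the median, and the SD over arrays 0.24.

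Of the genes of lipid use and transport, 4 were measured in both fractions, and all of these passed on the IP side. Their mean ratios ran from 1.33 to 2.62. Among all named genes measured in both fractions 14 of 22 passed on the IP side, and among all such features 35.9%. The other kept member, Ppara, was kept through the IP channel alone and so had to lie on that side. Ppara, the nuclear receptor that switches on fatty acid breakdown, had IP signals of 1179, 1812 and 1506 and supernatant signals of 67.0, 94.3 and 116. The supernatant was not well above background on any control array. The Ppara ratio of 4.13 ± 0.34 is therefore given as at least 11.5-fold toward the IP relative to the array median. Apoe, the lipid-carrying apolipoprotein, was bright in both fractions, at 129545, 167352 and 127332 in the IP and 24206, 24139 and 24795 in the supernatant. Its ratio was 2.57, 2.89 and 2.40 (limma adjusted p = 9.43e-05), and the IP signal exceeded the supernatant several-fold on every array. Pex11a, which acts in the division of peroxisomes, had ratios of 2.24, 2.22 and 2.10. Cpt1a, the carnitine palmitoyltransferase that admits long-chain fatty acids to mitochondria, had 1.78, 2.04 and 1.51. Acaa2, a thiolase of mitochondrial fatty acid oxidation, had 1.20, 1.46 and 1.33, and did not pass with spike-in centring (0.38, limma adjusted p = 0.172).

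The kept genes known from neural and secretory cells, Mbp and Chgb, were dim and entered through the IP channel alone, so the filter fixed their side and their values are a description. Mbp, which encodes myelin basic protein, had ratios of 3.36, 4.20 and 3.88, with the supernatant well above background on 1 of 3 arrays, so the size of its ratio is not settled on the others. Its IP signal was 485 and 546 on control replicates 1 and 3 and 3011 on control replicate 2, so the arrays differed in its level far more than in its ratio. Chgb, the secretory granule protein chromogranin B, had ratios of 4.01, 2.82 and 3.54. Its supernatant was not well above background on any array, and the ratio was at least 2.86-fold toward the IP. Tyr, the pigment enzyme tyrosinase of the same list, was not well above background in either fraction on any control array.

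Bambi, a pseudoreceptor that dampens TGF-beta and BMP signalling, had the largest ratio among genes measured in both fractions, at 3.12, 3.62 and 2.94. In the IP its signal was 2062, 4567 and 3922 and in the supernatant 262, 396 and 525 (limma adjusted p = 7.16e-05). Dnajc11, a DnaJ-family protein of the inner organisation of mitochondria, followed with ratios of 2.74, 3.07 and 2.87. Signals were 1378, 1852 and 2007 in the IP and 228, 235 and 282 in the supernatant. The lowest IP signal of either gene lay above its highest supernatant signal.

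Alkbh4, an AlkB-family dioxygenase, had ratios of 2.68, 2.79 and 2.20. Its supernatant was not well above background on any array, and the ratio, whose side the filter fixed, was at least 3.69-fold toward the IP. Nup50, a nucleoporin, had 1.86, 1.55 and 2.09. Carhsp1, an RNA-binding phosphoprotein, had 1.98, 1.65 and 1.74, and Uhrf1bp1l had 1.78, 2.23 and 1.53. Rps4l, a ribosomal protein S4-like gene, was nearer the middle at 0.83, 0.90 and 0.63. It passed (limma adjusted p = 0.0114) but not without control replicate 3 (0.87, limma adjusted p = 0.0584), and with spike-in centring its sign turned (-0.16). Hybridisation from the close copies of Rps4l, Actb and the H2-Q genes was not tested.

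Gpi1, the 1 gene of glycolysis among the named genes, and both kept MHC class I genes passed on the IP side. Gpi1, an isomerase early in glycolysis, had IP signals of 77714, 87134 and 108592 and supernatant signals of 29160, 34884 and 36256. Its ratio was 1.56, 1.42 and 1.62 (limma adjusted p = 5.26e-04). H2-M2 and H2-Q7 encode MHC class I heavy chains of the nonclassical group. H2-M2 had 1.19, 1.52 and 1.23 and H2-Q7 had 1.32, 1.26 and 1.24, an SD of 0.05 over the arrays. Both passed in the main setting. With spike-in centring they stood at 0.37 (limma adjusted p = 0.20) and 0.33 (limma adjusted p = 0.207).

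Of the kept sperm genes, Hyal3 had its side fixed by the filter and Cep41 did not pass in the main setting. Hyal3, a hyaluronidase of the sperm surface family, had ratios of 1.85, 2.55 and 1.79. Its IP signal was 290, 512 and 404, and its supernatant was not well above background on any array. The filter fixed its side, and the ratio was at least 3.04-fold toward the IP. Cep41, a centrosomal protein needed for tubulin glutamylation in cilia, had -0.53, -0.56 and -0.32 and did not pass (limma adjusted p = 0.0764). It passed on the supernatant side with loess, with no centring, with spike-in centring and with the filter on both channels, with adjusted p from 0.00113 to 0.0424. Spats1, the other listed gene of this group with a feature, was not well above background in either fraction on any control array.

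The redox genes were on the supernatant side or near 0. Prdx2, a peroxiredoxin that removes hydrogen peroxide, was the lowest of all named genes, at -1.09, -1.33 and -1.34. Its signal was 12692, 15202 and 17541 in the IP and 29822, 40754 and 45769 in the supernatant (limma adjusted p = 0.00139). Every supernatant signal lay above every IP signal. Gsta4, a glutathione transferase for lipid peroxidation products, had -0.71, 0.25 and -0.001 and did not pass, with a 95% interval of the mean from -0.74 to 0.44. Its sign differed between arrays, and control replicate 1 was the lowest. Duox1, an oxidase that makes hydrogen peroxide, was well above background on 2 of 3 control arrays in each fraction and was not kept.

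Genes of membrane trafficking were near the middle. Rab5a, a small GTPase of early endosomes, had 0.38, 1.56 and 0.46, so that control replicate 2 stood apart. It passed (limma adjusted p = 0.0396) but not without control replicate 2 (0.42, limma adjusted p = 0.17) or without control replicate 3 (0.97, limma adjusted p = 0.0692), nor with normexp, loess, no centring, spike-in centring, the filter on both channels or no filter. Tm9sf1, a multipass membrane protein, had 0.24, -0.24 and 0.02, with a 95% interval from -0.49 to 0.50, and lay at -0.94 with spike-in centring (limma adjusted p = 0.00581). Gamt, which makes creatine, had 0.60, 0.36 and 0.30 and did not pass (limma adjusted p = 0.11), and with normexp it passed (0.32, limma adjusted p = 0.044). Olfr166, an olfactory receptor gene, had 0.37, 0.45 and 0.44 with an interval from -0.05 to 0.89. Actb, the cytoskeletal actin often used as a reference, had -0.49, -0.08 and 0.03 with an interval from -0.69 to 0.33.

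**Figure D4:**
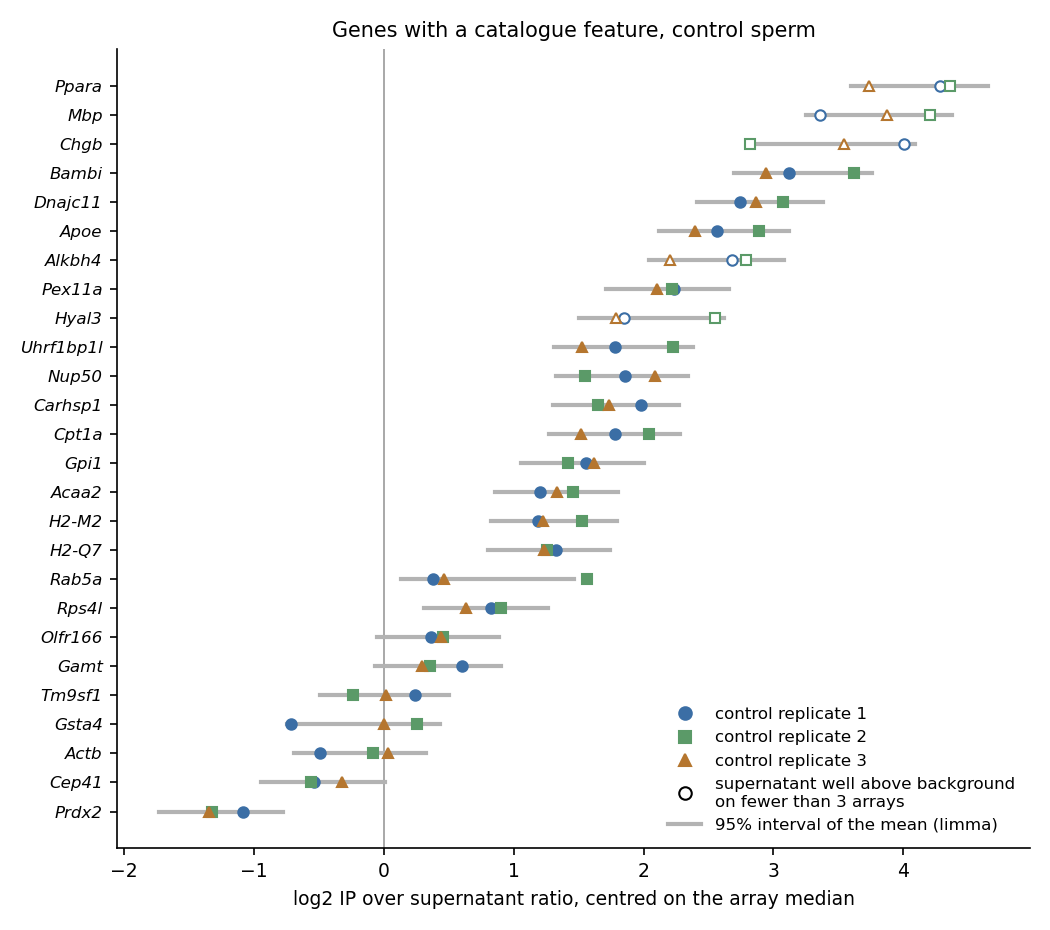
Log2 IP over supernatant ratio, centred on the array median, of the kept genes with a catalogue feature whose values are reported. Symbols are the 3 control arrays, open where the supernatant was well above background on fewer than 3 arrays, and grey lines are 95% intervals of the mean from limma; ratios run from -1.25 for Prdx2 to 4.13 for Ppara.

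Of the 18 named genes that were not kept, 9 were not well above background in either fraction on any control array: Atg3, E2f1, Gabrg1, Il2, Lhfp, Mzb1, Olfr1307, Spats1 and Tyr. Gsdmd, Kcnn2 and Trp53rka were well above background in the IP on 2 arrays and in the supernatant on none. Duox1, Lhx1 and Taf1a were so on 2 arrays in each fraction. Anxa8, Cav2 and Hspb7 were so in the IP on 2, 1 and 1 arrays and in the supernatant on 1, 1 and 0. Each of the 18 missed the filter, and no ratio is given for them.

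The partition seen in control sperm was set against the Cd arrays, which the filter and the calls did not use. Control arrays and Cd arrays were read in separate scans, so scan and Cd cannot be told apart. Of 6998 features higher in the IP in control with a value on all Cd arrays, 6691 (95.6%) lay on the IP side on all 3 Cd arrays and 16 on the supernatant side on all 3. Of 7168 higher in the supernatant, 6785 (94.7%) stayed on that side on all 3 and 5 lay on the other on all 3. The share was 98.8% for the 892 SM features on the supernatant side. The mean ratios of the control and the Cd arrays correlated at 0.97 across 21896 features, which sit on the same array design, and this is a description across features. The median ratio of the features higher in the IP was 1.37 on the control arrays and 1.26 on the Cd arrays. For those higher in the supernatant it was -1.50 and -1.33. The control values chose these features and so lie further out by selection.

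Limma, fitted to control against Cd arrays, called 1 feature (0.00457%) higher and 0 (0%) lower in Cd of 21896 tested. At an unadjusted p under 0.05 it counted 571 higher and 594 lower of 21896. Where nothing differs, a share of about 0.05 would pass this threshold, so these counts are not calls. The median 95% interval reached 0.68 log2 units to each side of a difference. It is not adjusted for the number of features tested, so single features could differ by more than this and still not pass. Against the SM median of -1.95 ± 0.34 in control stood one of -1.90 ± 0.24 on the Cd arrays (SD, n = 3; 2-sided exact permutation p = 0.9). The exact permutation p was 0.7 for EP3A, 0.6 for EP3B and 0.9 for the catalogue features, and 3 arrays against 3 cannot give less than 0.1. None of the 27 named genes passed. The ratio of Gpi1 was 1.53 ± 0.10 on the control arrays and 2.28 ± 0.36 on the Cd arrays, and the difference was 0.74 with a 95% interval from 0.13 to 1.35 (limma adjusted p = 0.915). For Dnajc11 the ratios were 2.90 ± 0.17 and 2.23 ± 0.33, a difference of -0.66 with an interval from -1.27 to -0.06 and the same adjusted p from limma, 0.915.

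**Figure D5:**
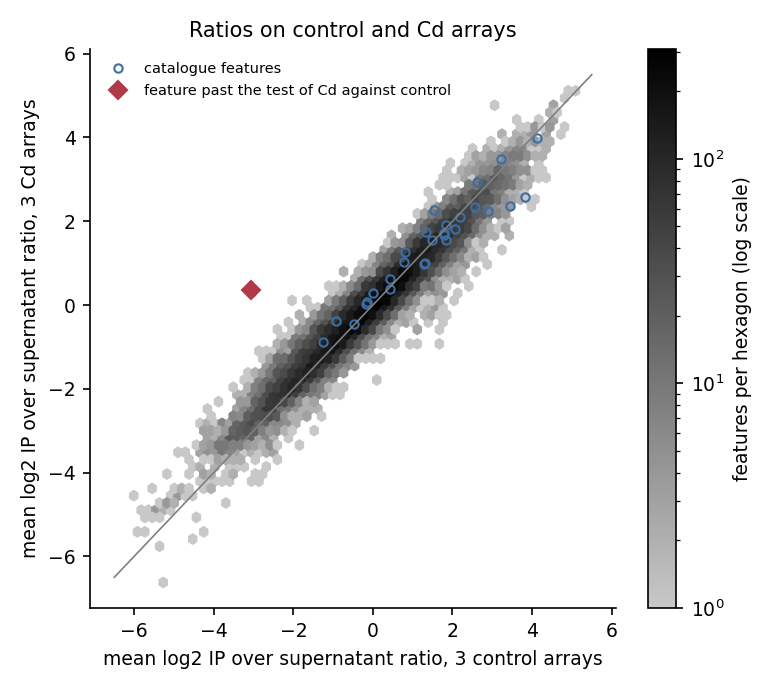
Mean log2 IP over supernatant ratio of 21896 features on the 3 control arrays (x axis) and on the 3 Cd arrays (y axis); grey shows features per hexagon on a log scale, circles are catalogue features and the line marks equal values. The diamond is the 1 feature that passed the test of Cd against control, at -3.07 on the x axis and 0.36 on the y axis.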

How the data were processed

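The deposited tables give an intensity per spot and channel. Per the file headers, Agilent Feature Extraction 11.0.1.1 subtracted background and normalized the dyes by a linear and a lowess step. The deposited log10 ratio served as a check on these signals. Processed signals of dim spots are raised to a floor, and the deposited log10 ratio is exactly 0 for 25.3% to 35.7% of the spots of a control array. Spots with an outlier flag were dropped, spots of a feature averaged on the log2 scale, and a feature with several spots counted as well above background where at least 50% of them were. Ratios of the 3 control arrays were tested against 0 with limma 3.58.1 (lmFit, eBayes) in R 4.3.3, over all 22172 kept features, and control was set against Cd in a 2-group fit that dropped 276 features with no value on a Cd array. Both fits were run on simulated data with independent normal noise. The simulation held no signal floor and no dye effect, so it does not bear on those limits. Symbols come from RefSeq (GRCm38.p6), used for names only: 45 of 50 catalogue features matched. The members and gene lists were chosen with earlier results of these data known. The values of 1 gene are left out of the text and the plot of genes but stay in the counts. Values on every array are given for the 8 highest and 8 lowest kept genes and up to 2 more of each list, and the 3 highest and 3 lowest called features of each other series are named. Uhrf1bp1l, Nup50, Carhsp1 and Rps4l, outside this rule, were added after their values were seen. Alternatives covered background correction, normalization, centring, filters, moderation and leaving out each array. The number of arrays limits the precision.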

Additional observations from a re-analysis of the deposited data

Results flagged for a closer look

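The feature ASMM10EP3A100132869 differed between the groups by a log2 difference of 3.43 (Cd minus control, 95% interval from 2.78 to 4.08, limma adjusted p = 0.0113), the sole feature to pass that test. In control sperm its ratio was -3.54, -2.94 and -2.73, and it was higher in the supernatant (limma adjusted p = 8.22e-05), with supernatant signals of 1110, 1441 and 1250 and IP signals of 86.3, 176 and 183. The IP was well above background on 2 of the 3 control arrays. On the Cd arrays the ratio was 0.46, 0.15 and 0.47, with supernatant signals of 102, 131 and 232 and IP signals of 134, 138 and 312. With normexp the difference was 1.05 (limma adjusted p = 0.722), and without a filter on dim features it was 3.46 (limma adjusted p = 0.432), so the call was lost in both settings. The filter on both channels removes the feature. The call was also lost without control replicate 2 or 3 and without each Cd array (limma adjusted p from 0.0508 to 0.153), and held without control replicate 1 (limma adjusted p = 0.0273). The part of the separate scans in this difference was not tested.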

How the results depend on the processing

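With spike-in centring 2648 features were higher in the IP and 12941 in the supernatant; the 14 spike-in features had mean ratios from -1.98 to 2.26 and the median feature moved by -0.95. Without variance moderation the counts were 2788 and 2587. Leaving out 1 control array gave 5284 to 6560 and 5753 to 6980. In the other settings run (normexp, loess, no centring, both filters, variance trend, at least 2-fold and no replicate block) the counts stayed within 1.5 times the main ones. The number tested was not the same, at 15148 with the filter on both channels and 60392 with no filter, against 22172. With no filter, 4328 of the 7054 IP calls and 5281 of the 7347 supernatant calls passed again. The fit with no replicate block, which treats the channels as unpaired, gave 5371 and 5843. The EP3A median moved to 0.0280 with normexp, -0.0205 with no centring, -0.87 with spike-in centring, 0.0449 with the filter on both channels and 0.0051 with no filter; EP3B to -0.0925 with no centring and -0.95 with spike-in centring; SM to -0.60 with normexp, -2.89 with spike-in centring and -0.0432 with no filter, which adds dim features whose ratio is set by the signal floor. The slope on level became -0.0211 with the level of the Cd arrays, -0.0931 with the filter on both channels and -0.0279 with normexp. Spike-in centring turned Rab5a to -0.15, Rps4l to -0.16 and Tm9sf1 to -0.94. Of features higher in Cd, 0 passed with normexp, under the filter on both channels (which removes the 1 called feature) or without a filter, and 0 to 1 on leaving out 1 array. Lower in Cd, loess called 4. Deviations of same-numbered control and Cd arrays correlated at -0.06, -0.05 and -0.11. These values cannot tell whether the numbers pair the arrays by design. The replicate block gave 1 higher and 0 lower. Beyond what is stated, the cause was not tested. Signal over background limits the ratios, as 15148 of 60691 features were measured in both fractions on all 3 control arrays.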

Other observations

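Identifier numbers went along with the partition in control sperm; this grouping was chosen after the values were seen. When the 1180 kept SM features were cut into 10 equal bins by identifier number, the median log2 ratio, as a mean of the 3 control arrays, lay between -2.33 and -1.95 in the first 7 bins. It was -1.53 ± 0.42, -1.002 ± 0.17 and -0.57 ± 0.09 (SD, n = 3) in the last 3. On the Cd arrays the last 3 bins gave means of -1.60, -0.99 and -0.54. The share of SM features higher in the supernatant was 83.9% in the first bin and 50.0% in the last. Among SM features measured in both fractions, the first 7 bins lay between -2.25 and -1.84 and the last 3 at -0.26, -0.42 and -0.36. The sources used here do not give what the numbers encode.

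The array also carries control features for the ends of mouse Gapdh, a glycolytic enzyme, outside the 4 series. The 3′ feature had ratios of 0.90, 0.51 and 0.67 on the control arrays and the 5′ feature -0.38, -0.46 and -0.25, so features of 1 gene lay on different sides of the array median. The 3′ value exceeded the 5′ value by 1.06 ± 0.20 (SD, n = 3) in control and 1.20 ± 0.15 in Cd, a distance that does not depend on centring. With spike-in centring both lay below 0, at -0.25 and -1.31. The 3′ feature of Pgk1, another glycolytic enzyme, had a ratio of 0.78 ± 0.21 (-0.16 with spike-in centring). Its 5′ feature was not well above background in either fraction on any control array, so its ends were not compared.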
